A study of Arabidopsis thaliana with 4 samples.

Results

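Gibberellins are plant hormones that promote growth by removing the DELLA proteins, nuclear repressors of the GRAS family. Bound gibberellin lets a GID1 receptor hold a DELLA protein, and an F-box protein such as SLY1 then marks the DELLA protein for breakdown. GA20ox and GA3ox enzymes make the active hormone in the last steps of its synthesis, and GA2ox enzymes inactivate it. DELLA proteins are also known to raise the transcription of several receptor and synthesis genes, which gives the pathway a negative feedback.

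The genes described here are 10 members of this system, of 28269 genes joined across the libraries. They are the 5 DELLA genes GAI, RGA, RGL1, RGL2 and RGL3, the synthesis genes GA20ox1, GA20ox2 and GA3ox1, and the inactivation genes GA2ox2 and GA2ox6. They were chosen by name. A member was read from the row with its own gene identifier, and otherwise from the locus that overlapped the gene's span by at least 80% reciprocally. All 10 had a value in all 4 libraries, and 8 passed the filter of at least 1 FPKM (fragments per kilobase, scaled to library depth) in at least 2 libraries. RGL2 and GA20ox2 did not.

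The libraries hold RNA taken with an anti-Myc antibody from crosslinked nuclei of Arabidopsis plants aged 3 weeks, ecotype Columbia (Col-0). The 2 control RIP libraries, called controls below, came from wild-type plants. The 2 CLF RIP libraries, called Myc-CLF libraries below, came from clf-28/Myc-CLF plants, in which Myc-tagged CURLY LEAF (CLF) rescues the clf-28 mutant. CLF is a Polycomb enzyme that methylates histone H3. The labels give no promoter for the transgene, and the tag, the transgene and the mutant background differ together between the groups. The design sets RNA precipitated with Myc-CLF against RNA that the antibody and beads take from untagged plants. No input library was analysed here, so the values are levels in the precipitates. In such material, fewer cells with a transcript, less of it per cell and less of it recovered cannot be told apart. Groups follow the sample labels. The table names point to the reverse grouping, and if they rather than the labels are right, every direction given here turns. The labels do not state whether replicates are separate plantings, so p-values cover the spread among these 4 libraries and nothing more.

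Low FPKM values stepped as whole reads of a scaling depth of 10.0 and 9.66 M fragments in the controls and of 4.24 and 4.26 M in the Myc-CLF libraries, so a low value rests on fewer reads in the Myc-CLF libraries. CLF, the tagged gene, had 25.9 and 27.1 FPKM in controls 1 and 2, next to 4.24 and 25.7 FPKM in Myc-CLF libraries 1 and 2. The summed FPKM of the 4 joined green-shoot markers of 5 was 2574 and 2549 in the controls and 975 in each Myc-CLF library, and 3 of the 4 were lower by limma. The 5 root markers summed to 2.79 to 4.57 FPKM over all libraries, with CASP1 and EXPA7 listed at 0 throughout and most of the sum from PYK10. The 4 flower and seed markers summed to 20.7 and 26.7 FPKM in the controls and to 7.46 and 3.64 FPKM in the Myc-CLF libraries. The part of these differences in the results below was not tested.

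In outline, GAI, RGL1, RGL3, GA20ox1 and GA2ox2 were listed higher in the Myc-CLF libraries than in the controls without overlap, GA3ox1 and RGA were listed lower without overlap, and GA2ox6 overlapped. None of the 8 tested members passed limma's Benjamini-Hochberg adjusted p of 0.05 over 14499 genes, 0 higher and 0 lower. Of all tested genes, 0.717% (104) passed as higher and 0.579% (84) as lower; the split was 85 to 108 with quantile normalization, and 88 to 119 with median-of-ratios size factors. In simulated data with 2 libraries per group, limma called 0 of 81 genes with a 2-fold difference. It called 2 of 58 at 4-fold, and 48 of 61 at 16-fold, with 4 false calls. Only these genes of 14499 were changed in the simulation. The adjustment depends on the share of changed genes, so these rates need not hold for the real libraries. At an unadjusted limma p under 0.05, 2 members were higher (GAI and GA20ox1) and 0 lower, where 16.9% and 7.56% of all tested genes were. At least 2-fold on the log2(FPKM + 1) scale and without overlap, 1 member was higher (GA20ox1) and 1 lower (GA3ox1), beside 13.2% and 5.98% of all tested genes. GA20ox1 met the filter only through the Myc-CLF libraries, so it could enter these counts only as higher, and its place in them supports nothing. Without overlap at any fold, 5 of the 8 lay above and 2 below, beside 40.5% and 18.8% of all tested genes. GA20ox1 is among the 5, and the same limit of the filter holds for it there.

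**Figure D1:**
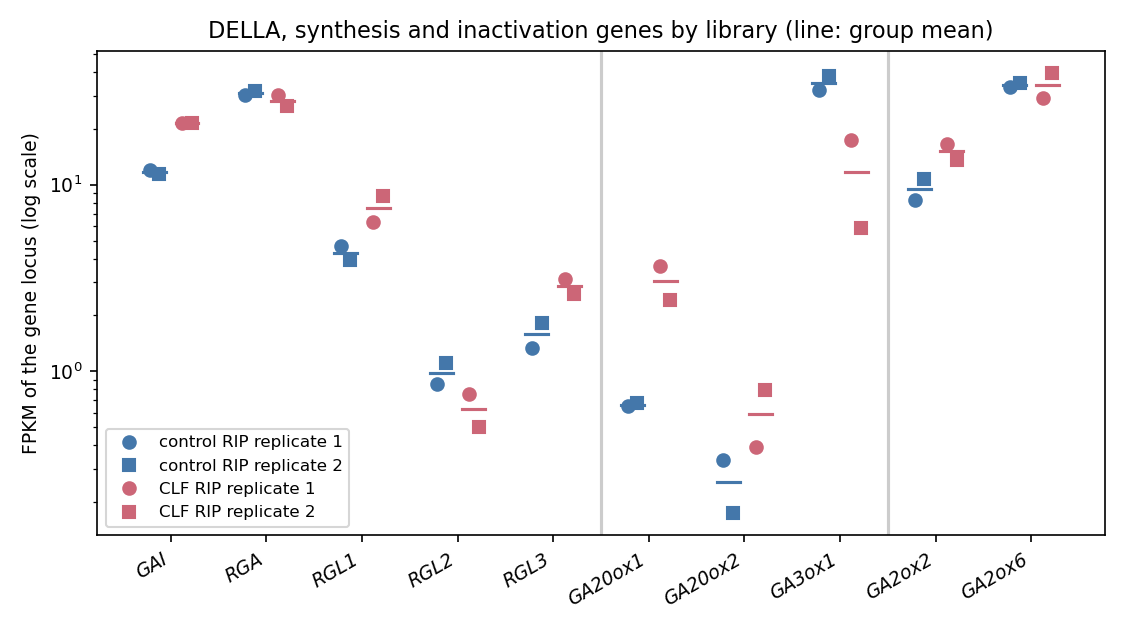
FPKM of the 10 members in each library, on a log scale, with circles for replicate 1, squares for replicate 2 and a line at each group's mean (n = 2). GAI sits at 11.4 to 11.9 FPKM in the controls and 21.3 to 21.5 FPKM in the Myc-CLF libraries, while the 2 Myc-CLF values of GA3ox1 lie far apart at 17.5 and 5.83 FPKM.

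Within the controls, the mean levels per length ran from GA3ox1 (35.1 FPKM), GA2ox6 (34.3 FPKM) and RGA (31.0 FPKM) through GAI, GA2ox2, RGL1, RGL3, RGL2 and GA20ox1 down to GA20ox2 (0.254 FPKM). GA3ox1 and GA2ox6 alone overlapped as neighbours in that order. In the Myc-CLF libraries the order began with GA2ox6 (34.5 FPKM), RGA (28.2 FPKM) and GAI (21.4 FPKM) and ended with RGL2 (0.630 FPKM) and GA20ox2 (0.591 FPKM). There the neighbours GA2ox6 and RGA, GA2ox2 and GA3ox1, GA3ox1 and RGL1, GA20ox1 and RGL3, and RGL2 and GA20ox2 overlapped. GA3ox1 thus stood at rank 1 in the controls and rank 5 in the Myc-CLF libraries, and GA20ox1 at rank 9 and rank 7. These ranks use the gene loci alone. With separate loci listed inside the genes added by span, as described below, GA3ox1 came to 28.0 and 32.0 FPKM in the Myc-CLF libraries. That is above GAI, so its rank 5 there depends on whether these inner loci are counted with the gene.

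The DELLA genes encode the repressors that gibberellin removes. GAI (AT1G14920, on chromosome 1 from 5149226 to 5151354 in TAIR10), the DELLA gene known from the dwarf gai mutant, stood at 11.9 and 11.4 FPKM in controls 1 and 2, next to 21.3 and 21.5 FPKM in Myc-CLF libraries 1 and 2. Both Myc-CLF libraries lay well above both controls, and libraries of a group differed by little. The log2 fold change was 0.82 (SE 0.20), with a limma adjusted p of 0.140 over all genes tested. GAI passed in the fit of the 2462 tested genes that carry their own identifier in all libraries, with a limma adjusted p of 0.0155, and the adjusted p ran up to 0.435 over the other alternatives. The median log2 fold change of all tested genes was 0.25, and GAI lay 0.57 above it, at percentile 79.7. GAI stayed above 0 under both other scalings, at 0.50 with quantile normalization, and 0.55 with median-of-ratios size factors.

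RGA (AT2G01570, chromosome 2, 255249 to 257550), the close paralog of GAI and a main repressor of stem growth, was the most abundant DELLA gene in every library. It stood at 30.1 and 31.8 FPKM in controls 1 and 2, next to 30.1 and 26.4 FPKM in Myc-CLF libraries 1 and 2. The groups did not overlap, but the nearest libraries were almost equal, at 30.107 and 30.096 FPKM. RGA had a log2 fold change of -0.13 (SE 0.19, limma adjusted p 0.696). It was -0.45 with quantile normalization, and -0.41 with median-of-ratios size factors.

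RGL1 (AT1G66350, chromosome 1, 24748195 to 24750043) stood at 4.68 and 3.95 FPKM in controls 1 and 2, next to 6.28 and 8.73 FPKM in Myc-CLF libraries 1 and 2. RGL3 (AT5G17490, chromosome 5, 5764063 to 5766077), a DELLA gene known from jasmonate responses, stood at 1.32 and 1.82 FPKM in controls 1 and 2, next to 3.11 and 2.60 FPKM in Myc-CLF libraries 1 and 2. Both genes were higher in the Myc-CLF libraries without overlap. Their log2 fold changes were 0.67 (SE 0.25) and 0.59 (SE 0.22), and neither passed in limma, with adjusted p of 0.227 and 0.221. RGL2 (AT3G03450, chromosome 3, 819337 to 821406), the DELLA protein that restrains seed germination, went the other way at 0.857 and 1.11 FPKM in the controls against 0.755 and 0.505 FPKM in the Myc-CLF libraries. It was below the filter and was not tested.

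The DELLA genes have no introns, so the reads behind their values could be estimated from the FPKM, the locus span and the scaling depth. GAI rested on 230 and 212 reads in the controls and on 174 and 176 in the Myc-CLF libraries, and RGA on 631 and 644 against 267 and 235. RGL1 rested on 77 and 63 reads against 44 and 61, and RGL3 on 24 and 32 against 24 and 20. RGL2 rested on 16 and 20 reads in the controls but on only 6 and 4 in the Myc-CLF libraries. In Myc-CLF library 1 a separate 74 bp locus inside RGL2 was listed at 51727.5 FPKM and is not part of the 6 reads. In that library 1 read on 75 bp stood at 25692.9 FPKM. The exact 95% Poisson intervals of GAI were 9.93 to 13.1 FPKM in control 2 and 18.3 to 24.8 FPKM in Myc-CLF library 1. Those of RGL2 reached from 0.491 to 1.39 FPKM in control 1 and from 0.137 to 1.29 FPKM in Myc-CLF library 2. For RGL2 a difference was thus not detectable at this depth, and for RGL3 the intervals of control 2 (1.25 to 2.59 FPKM) and Myc-CLF library 2 (1.59 to 4.01 FPKM) also overlapped. So did those of RGL1 in control 1 (3.70 to 5.86 FPKM) and Myc-CLF library 1 (4.59 to 8.48 FPKM). The intervals cover counting error only, since reads without molecular identifiers are not independent molecules.

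Shares of the DELLA family in the deposited FPKM are the same under any single scaling factor per library, though not under quantile normalization. GAI held a larger and RGA a smaller share in both Myc-CLF libraries than in both controls. GAI made up 24.4% and 22.8% of the summed DELLA FPKM in the controls and 34.7% and 36.0% in the Myc-CLF libraries. RGA made up 61.6% and 63.5% in the controls and 48.9% and 44.1% in the Myc-CLF libraries. Thus RGA led in all 4 libraries, by a smaller margin in the Myc-CLF libraries. RGL1 held 9.57% and 7.89% against 10.2% and 14.6%, RGL3 2.71% and 3.64% against 5.05% and 4.35%, and RGL2 1.75% and 2.21% against 1.23% and 0.845%. The ratio of GAI to RGA was 0.378 ± 0.027 (SD, n = 2) in the controls and 0.763 ± 0.076 (SD, n = 2) in the Myc-CLF libraries, 2.02 times as high. With 2 libraries per group the two-sided exact permutation p was 0.333, which is the smallest it can give. Of the reads of GAI and RGA, GAI held 26.7% (exact 95% binomial interval 23.8% to 29.8%) and 24.8% (21.9% to 27.8%) in the controls. It held 39.5% (34.9% to 44.2%) and 42.8% (38.0% to 47.8%) in the Myc-CLF libraries. These intervals, too, cover counting error within a library only and do not test the groups. GAI and RGA are similar in sequence, and no source used here says how reads that match both were assigned, so the split between them is uncertain.

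**Figure D2:**
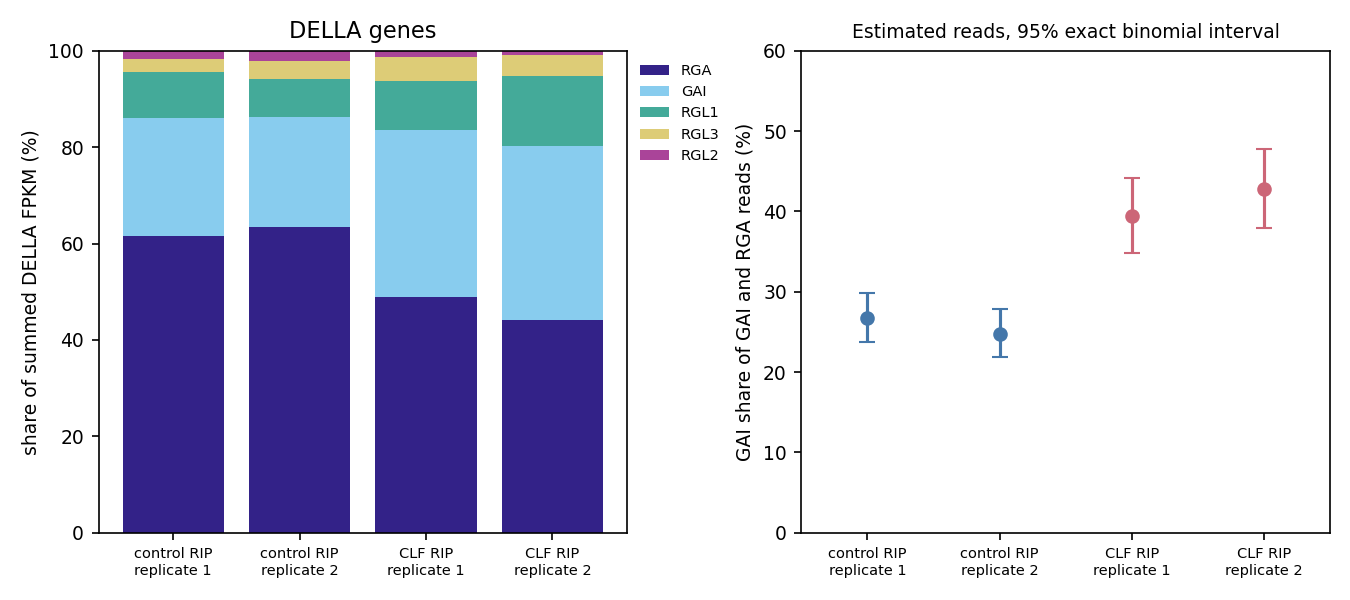
Left, the share of each DELLA gene in the summed DELLA FPKM of a library, in percent; right, the share of GAI in the estimated reads of GAI and RGA, in percent, with exact 95% binomial intervals. RGA fills 61.6% and 63.5% of the bar in the controls and 48.9% and 44.1% in the Myc-CLF libraries, and the GAI share of reads lies at 24.8% and 26.7% against 39.5% and 42.8%.

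The synthesis genes lay on different sides. GA20ox1 (AT4G25420, chromosome 4, 12990884 to 12992458), the oxidase gene mutated in the semi-dwarf ga5, stood at 0.651 and 0.672 FPKM in controls 1 and 2, next to 3.68 and 2.41 FPKM in Myc-CLF libraries 1 and 2. Both Myc-CLF libraries stood above both controls, and the ratio of the group means was 4.60. The log2 fold change, which understates such low genes, was 1.27 (SE 0.24, limma adjusted p 0.117). The gene passed the filter only through the Myc-CLF libraries, where it is high, so these values are a description; it missed the filter when either of these libraries was left out. In Myc-CLF library 1 it was read from a locus with a serial number, and a 193 bp locus inside it was listed at 21.7 FPKM. Such inner loci were absent for GA20ox1 in the other libraries.

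GA20ox2 (AT5G51810, chromosome 5, 21055188 to 21056808), a second gene of this enzyme, stood at 0.335 and 0.173 FPKM in controls 1 and 2, next to 0.393 and 0.788 FPKM in Myc-CLF libraries 1 and 2. Multiplied by the scaling depth, these values stood as 2.01, 1.00, 1.00 and 2.02 in units of the lowest library. They thus stood near 1 or 2 units, as values resting on few reads do, though the reads per unit were not known. No difference between groups was detectable.

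GA3ox1 (AT1G15550, chromosome 1, 5344478 to 5346166, and to 5346177 in control 2) makes the active hormone and is the gene mutated in the dwarf ga4. It stood at 32.1 and 38.1 FPKM in controls 1 and 2, next to 17.5 and 5.83 FPKM in Myc-CLF libraries 1 and 2. Both Myc-CLF libraries were lower than both controls, but they also lay far from each other. The lowest value, in Myc-CLF library 2, was read from the row with the gene's own identifier. The other libraries gave the gene under a serial number, and the part of this in the difference was not tested. GA3ox1 had a log2 fold change of -1.68 (SE 0.58, limma adjusted p 0.204), at percentile 2.23 of all tested genes. It was -0.96 without Myc-CLF library 2 and -2.40 without Myc-CLF library 1.

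Separate loci were also listed inside the GA3ox1 gene. They were found by position alone, and whether they hold reads of the GA3ox1 transcript was not tested. A locus of 478 to 514 bp in the middle of the gene was listed at 84.2, 85.3, 34.5 and 37.6 FPKM in controls 1 and 2 and Myc-CLF libraries 1 and 2. Myc-CLF library 2, the library with the lowest gene locus, held another inner locus of 361 bp at 72.0 FPKM. When inner loci of at least 300 bp were added by their span, a setting chosen after the data were seen, GA3ox1 came to 56.0 and 63.6 FPKM in the controls and to 28.0 and 32.0 FPKM in the Myc-CLF libraries. The libraries of a group then lay close together. Its log2 fold change, then -0.97, still missed the threshold, with a limma adjusted p of 0.107, and over all alternatives the adjusted p ran from 0.107 to 0.507.

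**Figure D3:**
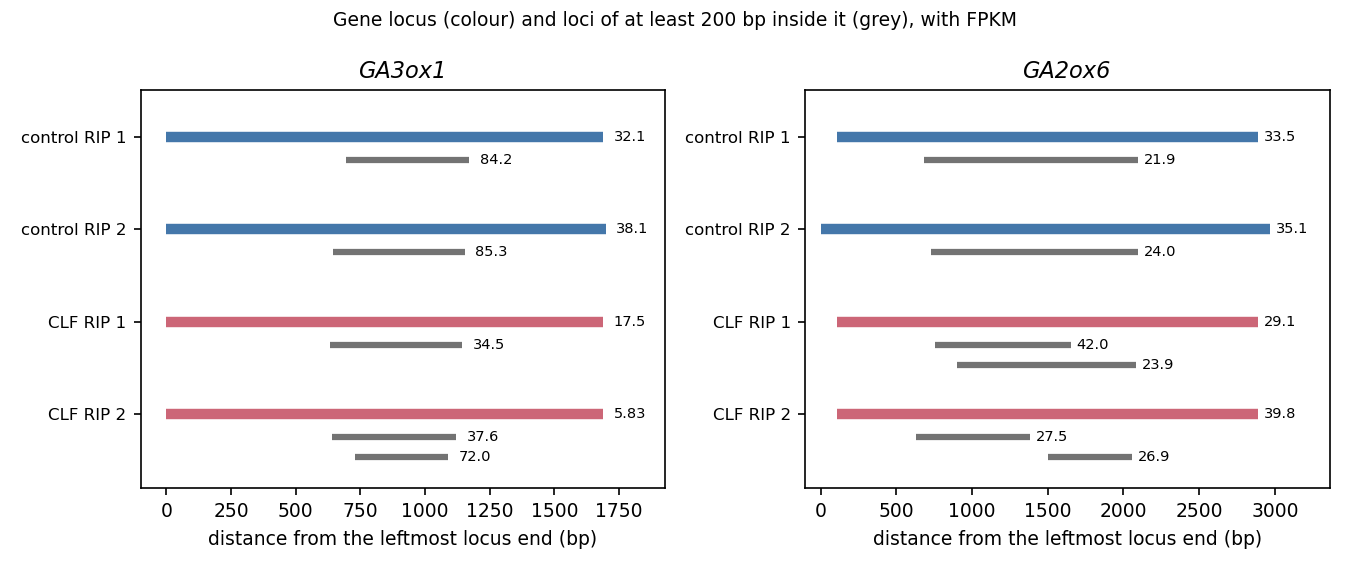
Loci listed for GA3ox1 (left) and GA2ox6 (right) in each library, drawn to scale in bp from the leftmost locus end, with the FPKM of each beside it. Coloured bars are the gene loci and grey bars the inner loci of at least 200 bp; the grey bar of GA3ox1 lies at 84.2 and 85.3 FPKM in the controls and at 34.5 and 37.6 FPKM in the Myc-CLF libraries, where replicate 2 has another at 72.0 FPKM.

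The inactivation genes were both well above the filter. GA2ox2 (AT1G30040, chromosome 1, 10537648 to 10539831, and to 10539950 in Myc-CLF library 2) stood at 8.30 and 10.7 FPKM in controls 1 and 2, next to 16.6 and 13.6 FPKM in Myc-CLF libraries 1 and 2. The Myc-CLF libraries were higher without overlap, with a log2 fold change of 0.62 (SE 0.25, limma adjusted p 0.242). GA2ox2 was read from its own identifier in Myc-CLF library 1 and from loci with a serial number in the other libraries. The value was 0.31 with quantile normalization, and 0.35 with median-of-ratios size factors.

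GA2ox6 (AT1G02400, chromosome 1, 486801 to 489577, and 486691 to 489656 in control 2) was read from a locus with a serial number in all 4 libraries. It stood at 33.5 and 35.1 FPKM in controls 1 and 2, next to 29.1 and 39.8 FPKM in Myc-CLF libraries 1 and 2. The control values lay between the Myc-CLF values. The log2 fold change was -0.01 (SE 0.24, limma adjusted p 0.986), and its sign turned with the library left out. Inner loci were listed at 21.9 FPKM (1408 bp) and 24.0 FPKM (1363 bp) in the controls. They were listed at 42.0 FPKM (894 bp) and 23.9 FPKM (1179 bp) in Myc-CLF library 1 and at 27.5 FPKM (754 bp) and 26.9 FPKM (558 bp) in Myc-CLF library 2. With inner loci added by span, GA2ox6 came to 44.6 and 46.1 FPKM in the controls and to 52.7 FPKM in each Myc-CLF library, with a log2 fold change of 0.21 (limma adjusted p 0.424).

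**Figure D4:**
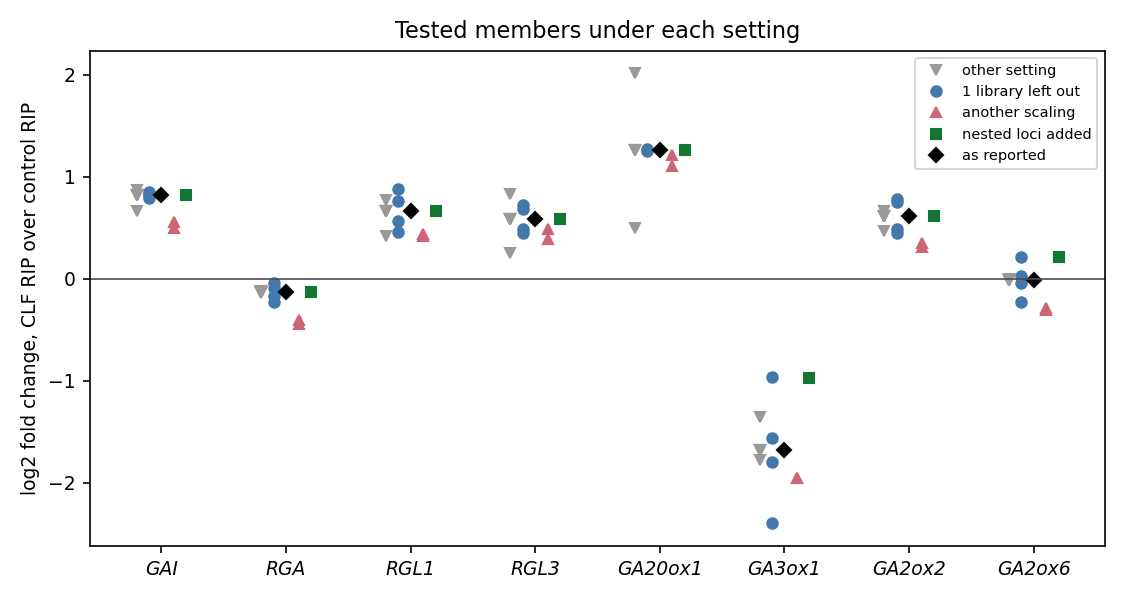
Log2 fold change of the 8 tested members, CLF RIP over control RIP, as reported (black) and under the alternative settings. GAI, RGL1, RGL3, GA20ox1 and GA2ox2 stay above 0 and RGA and GA3ox1 below 0 in every setting in which they were tested, GA2ox6 lies on both sides, and both other scalings place all 8 lower than reported.

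The other genes of the pathway were taken from 6 lists with 40 genes. Of these, 34 were joined in all 4 libraries, 7 of them listed at 0 throughout, and 21 were tested. By limma 0 of the 21 were higher and 0 lower at an adjusted p under 0.05, while 7 were higher and 1 lower at an unadjusted p under 0.05, beside 16.9% and 7.56% of all tested genes. At least 2-fold and without overlap, 6 were higher and 1 (GAMT2) was lower, beside 13.2% and 5.98%. Of the 21, 17 lay above 0 as reported, where 9174 of the 14499 tested genes did. The number was 13 with quantile normalization, and 12 with median-of-ratios size factors. The median log2 fold change of the 21 was 0.37 and that of the 8 tested members 0.60, beside 0.25 for all tested genes. The members' median includes GA20ox1, which passed the filter only through the Myc-CLF libraries. The median of the 21 includes GAMT2, which passed it only through the controls.

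GID1B (AT3G63010), a gibberellin receptor, stood at 9.38 and 10.1 FPKM in controls 1 and 2, next to 26.2 and 24.8 FPKM in Myc-CLF libraries 1 and 2 (log2 fold change 1.31, SE 0.20, limma adjusted p 0.0925). GID1C (AT5G27320) gave 6.77 and 6.50 FPKM in the controls versus 17.6 and 13.8 FPKM with Myc-CLF (log2 fold change 1.12, SE 0.23, limma adjusted p 0.122). GID1A (AT3G05120), picked with its values known, gave 19.5 and 19.2 FPKM in the controls versus 36.7 and 35.3 FPKM with Myc-CLF. Each of the 3 receptor genes was thus higher in both Myc-CLF libraries than in both controls, and stayed above 0 under both other scalings. Their loci were longer in the Myc-CLF libraries. GID1B spanned 2062 bp in both controls, next to 2383 and 2480 bp with Myc-CLF. GID1C had its own identifier and 2124 bp in both controls, next to serial-number loci of 2249 and 2460 bp with Myc-CLF. GID1A spanned 2404 and 2327 bp against 2548 and 2533 bp. At a reciprocal overlap of 0.9, GID1A was still tested, but GID1B and GID1C were not. The part of this in the differences was not tested. Of the 5 genes of receptors and F-box proteins, 4 lay above without overlap and 0 below, beside 40.5% and 18.8% of all tested genes. The F-box gene SLY1 was among the 4, and SNE overlapped; both were picked after their values were seen.

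In the early synthesis list, GA3/KO (AT5G25900), the ent-kaurene oxidase gene, stood at 5.62 and 4.98 FPKM in controls 1 and 2, next to 11.0 and 14.2 FPKM in Myc-CLF libraries 1 and 2 (log2 fold change 1.10, SE 0.23, limma adjusted p 0.127). GA2/KS (AT1G79460), the ent-kaurene synthase gene, gave 1.90 and 3.89 FPKM in the controls versus 3.57 and 3.06 FPKM with Myc-CLF and overlapped. GA1/CPS and KAO2 were not joined in all libraries. Of the 11 other oxidase genes, GA2ox1 (AT1G78440) alone was tested, at 1.302 and 2.69 FPKM against 0 and 1.16 FPKM, and 4 were listed at 0 in all libraries. In the list of other inactivation genes, GAMT2 (AT5G56300), a gibberellin methyltransferase gene, was at 2.09 and 1.34 FPKM in the controls against 0.382 and 0.191 FPKM in the Myc-CLF libraries. Its log2 fold change was -1.07 (SE 0.24, limma adjusted p 0.134), and it was the only tested gene of that list. GAMT2 passed the filter only through the controls, where it is high, so its place among the lower genes is a description.

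Among DELLA modifiers and partners, SCL3 (AT1G50420), a GRAS gene whose product acts against DELLA proteins, stood at 2.98 and 3.90 FPKM in controls 1 and 2, next to 8.05 and 7.95 FPKM in Myc-CLF libraries 1 and 2 (log2 fold change 1.03, SE 0.22, limma adjusted p 0.126). GID1C, GA3/KO and SCL3 were under 2-fold after both other scalings, and GID1B with quantile normalization (log2 fold change 0.996). GAF1/IDD2 (AT3G50700), a zinc finger partner of DELLA proteins, gave 40.6 and 46.5 FPKM in the controls versus 68.9 and 66.1 FPKM with Myc-CLF. Both were higher in the Myc-CLF libraries without overlap, while SEC, a gene for an O-GlcNAc transferase picked after its values were seen, overlapped. Of the 4 tested genes of this list, 3 lay above without overlap and 0 below, beside the same 40.5% and 18.8%.

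Among response genes, XERICO (AT2G04240), a RING-type gene known as a DELLA target that links to abscisic acid, stood at 8.38 and 8.50 FPKM in controls 1 and 2, next to 31.9 and 30.4 FPKM in Myc-CLF libraries 1 and 2. Its log2 fold change of 1.77 (SE 0.20) had a limma adjusted p of 0.0691, and 0.00319 among the 2462 tested genes with their own identifier in all libraries. It had the smallest p of all tested members and listed pathway genes. MYB33 (AT5G06100), a GAMYB gene, varied widely within groups, from 42.2 to 17.7 FPKM in the controls and from 58.7 to 93.2 FPKM in the Myc-CLF libraries. Its log2 fold change of 1.40 (SE 0.54) had a limma adjusted p of 0.233. GASA4 lay below without overlap, at 95.4 and 101 FPKM against 69.3 and 83.5 FPKM, and was picked with its values known.

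**Figure D5:**
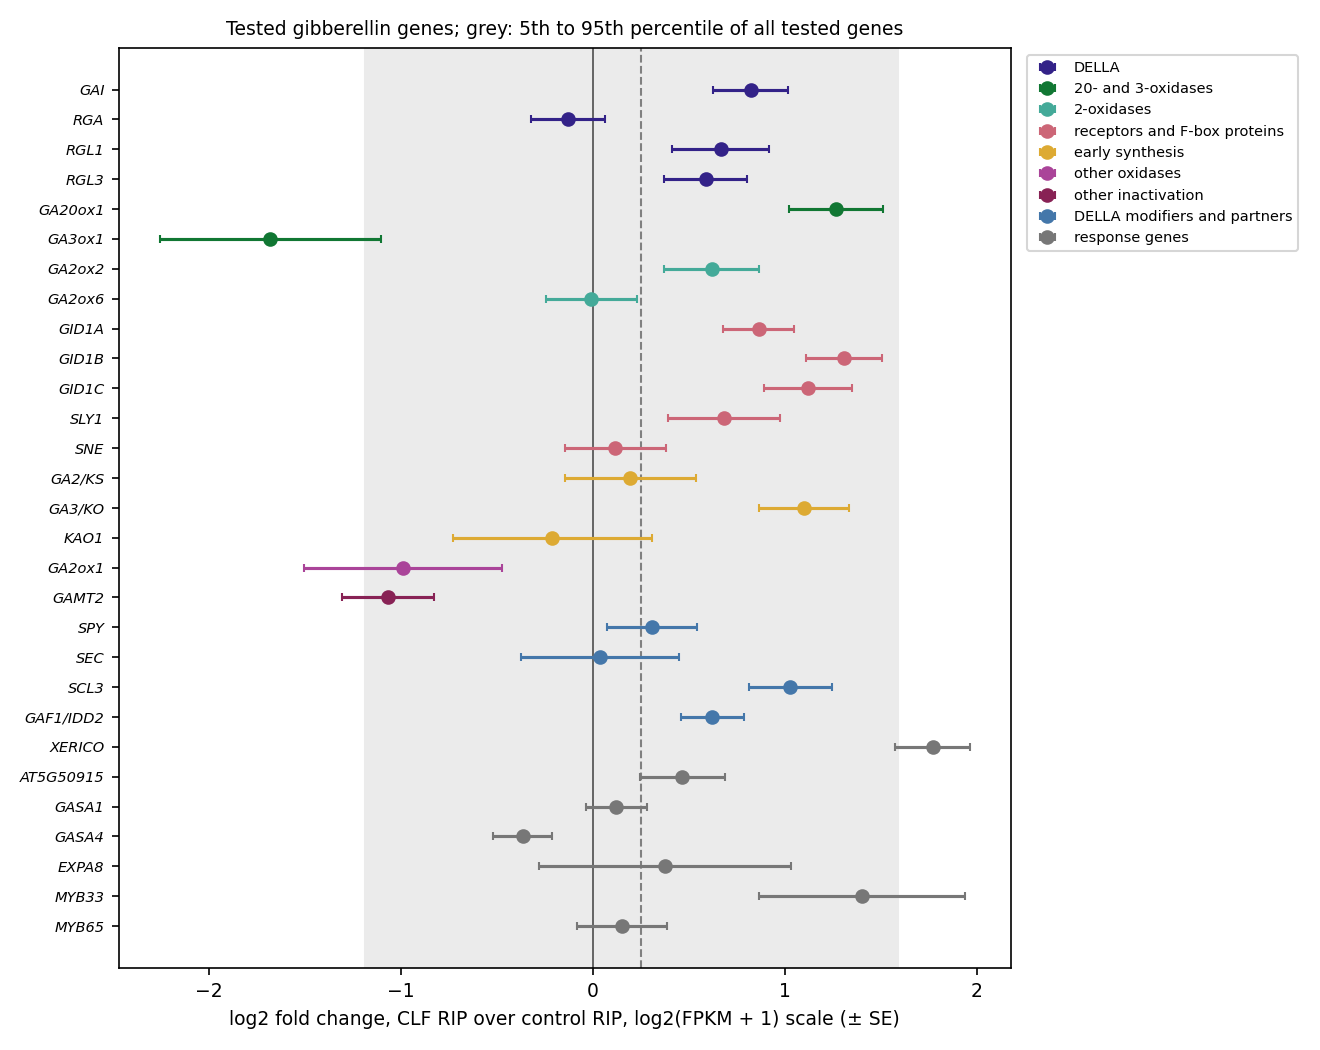
Log2 fold change (CLF RIP over control RIP, log2(FPKM + 1) scale) with its SE for the 8 tested members and the 21 tested genes of the other lists. The grey band holds all 14499 tested genes between percentiles 5 and 95, from -1.19 to 1.59, around a median of 0.25 (dashed); XERICO at 1.77 and GA3ox1 at -1.68 lie outside it.

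The genes with the most similar values to GA20ox1, by Euclidean distance of log2(FPKM + 1) over the 4 libraries, were AT3G57440 (distance 0.298), AT4G07519 (0.327) and AT4G36470 (0.331). AT3G57440 stood at 0.762 and 0.916 FPKM in controls 1 and 2, next to 3.65 and 2.92 FPKM in Myc-CLF libraries 1 and 2. Nearest to GA2ox6, the member with the highest mean, were PIP1;4 (AT4G00430, distance 0.224), ATCES1 (AT4G22330, 0.249) and AT4G24060 (0.253). PIP1;4 gave 33.2 and 32.1 FPKM in the controls versus 26.8 and 35.8 FPKM with Myc-CLF.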

How the data were processed

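Per the file headers, each deposited table gives 1 FPKM per locus and library. The submitters' processing notes name Trimmomatic, TopHat2 2.0.10 and TAIR10, but no program for the FPKM. Locus starts, which the tables count from 0, are printed counting from 1. A gene whose identifier no library listed took its span from RefSeq (TAIR10.1), where all 65 listed genes matched. Serial-number loci needed a span of at least 300 bp. The test was limma (version 3.58.1, R version 4.3.3) on log2(FPKM + 1), with lmFit and eBayes using a mean trend and a robust prior. Benjamini-Hochberg adjustment ran over 14499 genes. The test was also tried on data simulated from the means and spreads of this fit. Scaling depth was chosen to turn low values into whole reads, and 86.5% to 89.3% of low serial-number loci of 400 to 1000 bp then lay within 0.1 of a whole read. Since spliced lengths were not known, reads were estimated for the DELLA genes alone. The text names all 10 members and, per pathway list, the genes past a call rule and the 2 with the smallest p, besides exceptions stated beside them. Alternatives changed the pseudocount, filter, scaling, prior, replicate block, joining rule and libraries used. Members and lists were chosen with earlier results of these data known. Tables and plots used Python (3.11.15), numpy (2.4.6), pandas (2.3.3), matplotlib (3.10.9) and scipy (1.17.1).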

Additional observations from a re-analysis of the deposited data

Results flagged for a closer look

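The loci listed inside the GA2ox6 gene were used by no planned comparison. The highest of them in each library was 42.0 and 27.5 FPKM in CLF RIP replicates 1 and 2, above the 21.9 and 24.0 FPKM of the control RIP libraries. The item was flagged because these highest values did not overlap between the groups. More inner loci were listed in the Myc-CLF libraries than in the controls. Their spans also differed between libraries, so this difference was not tested.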

How the results depend on the processing

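Of 322 pairs of a result and an alternative setting, 250 were labelled unchanged. For single members this meant the same direction and call, which 108 of 112 pairs kept. A count was unchanged if it stayed within a fixed ratio of the reported count. Medians were unchanged if they moved by less than the SD over pairs of a Myc-CLF and a control library. The exceptions among members were GAI, which passed limma with the own-identifier genes alone (adjusted p 0.0155), and GA2ox6. GA2ox6 ran from -0.23 to 0.21 when a library was left out. Its log2 fold change turned from -0.01 to 0.02 without control 2, to 0.21 without Myc-CLF library 1, and to 0.21 with inner loci added by span, a setting chosen after the data were seen. With own-identifier genes alone, members higher by limma numbered 1 and other pathway genes higher by limma 1, and the cause was not tested. At least 2-fold without overlap, members higher numbered 0 with a pseudocount of 5, with a filter of at least 5 FPKM and with own-identifier genes alone, and 0 to 1 when a library was left out (0 without either Myc-CLF library). Members lower numbered 0 with own-identifier genes alone and with inner loci added, and 0 to 1 when a library was left out (0 without Myc-CLF library 2). GA20ox1 and GA3ox1 are not among the own-identifier genes. By the same rule, other pathway genes higher numbered 3 with a pseudocount of 5, 2 with quantile normalization, 3 with median-of-ratios size factors and 1 with own-identifier genes. Other pathway genes lower numbered 2 with a pseudocount of 0.1, 0 with a pseudocount of 5, 0 with the filter at 5 FPKM, 2 with quantile normalization, 2 with median-of-ratios size factors, 0 with own-identifier genes, and 0 to 1 when a library was left out (0 without control 2).

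Over all tested genes, limma called 63 higher and 55 lower with a pseudocount of 0.1, 12 and 11 with a pseudocount of 5, 4 and 3 with no filter, 37 and 27 with no trend and no robust prior, and 284 and 204 with own-identifier genes alone. Leaving out a library gave 0 to 1 higher and 0 to 4 lower, while 1586 to 3460 genes had an unadjusted p under 0.05, so the counts of calls rest on having all 4 libraries. At least 2-fold without overlap, 929 were higher and 391 lower with a pseudocount of 5, 1125 and 1348 with quantile normalization, 1097 and 1377 with median-of-ratios size factors, and 186 and 174 with own-identifier genes. The median log2 fold change of the members was 0.34 with a pseudocount of 5, 0.46 with no filter, 0.30 with the filter at 5 FPKM, 0.37 with quantile normalization, 0.37 with median-of-ratios size factors and 0.45 to 0.65 when a library was left out. The median of all tested genes was 0.29 with a pseudocount of 0.1, 0.16 with a pseudocount of 5, 0.11 with no filter, 0.30 with the filter at 5 FPKM, 0.021 with quantile normalization, 0.0080 with median-of-ratios size factors, 0.11 with own-identifier genes, 0.24 with a reciprocal overlap of 0.9 and 0.21 to 0.28 when a library was left out. Both other scalings align the libraries by design, which moved the median of all genes by over 0.1. Values should be read against this median.

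With the replicate number as a block, limma called 0 genes higher and 0 lower; 2636 genes had an unadjusted p under 0.05, and no member passed. Libraries with the same number hardly deviated together (correlation 0.0202), so the numbers were not taken as a pairing. Depth limits RGL2, with 4 and 6 estimated reads in the Myc-CLF libraries, and the members under 1 FPKM in a group, GA20ox1 and GA20ox2.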
